A study of Arabidopsis thaliana with 14 samples.

Results

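Convergent genes face each other on opposite strands, so that their transcripts run toward a shared boundary. Where both transcripts are cleaved and polyadenylated beyond that boundary, their 3′ ends are complementary to each other. CPSF70 is the longer protein of the plant CPSF30 locus. It belongs to the complex that cleaves pre-mRNA and adds the poly(A) tail, and its YTH domain binds m6A. m6A is a methylated adenosine of mRNA, and in plants it lies mostly near transcript 3′ ends. Overlapping convergent transcripts are known in Arabidopsis as a source of natural antisense RNA, and for some loci of small RNAs made from double-stranded RNA.

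The overlapping ends described here are pairs of poly(A) sites, 1 on each strand, whose + strand midpoint lies 0 to 300 nt to the right of the − strand midpoint. Sites were nuclear clusters of poly(A) tags listed in both tables of the wild type Col0, with clusters joined where at most 24 nt lay between them. This choice used positions and presence in Col0, and no level of the mutant. It gave 276 pairs at 252 loci, made of 528 sites (263 on the + strand and 265 on the − strand), of 16674 Col0 sites in all (3.17%). A single pair lay at 230 loci, while 20 loci held 2 pairs and 2 loci held 3, so that pairs of these 22 loci share sites. Convergent pairs that lay up to 300 nt apart without overlap numbered 750, and 14827 Col0 sites had no site of the other strand within 300 nt.

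Poly(A) sites were sequenced by A-seq2, which primes on the poly(A) tail, in 2 libraries of wild-type Col0 and 2 of the cpsf70 mutant, all from whole 12-day seedlings grown in long days. m6A peaks came from 2 samples of 14-day Col0 seedlings, and CLIP peaks, which mark RNA crosslinked to the protein, from 2 samples of 12-day seedlings that overexpress CPSF70, pulled down with anti-FLAG beads. The 2 CLIP samples of Col0 were not analysed here. The cpsf70 allele and the promoter of the overexpression line are not named in the labels. Since no label says that replicates were grown separately, the spread behind the p-values may be technical. All positions are TAIR10 coordinates as the authors gave them, and levels are the authors' TPM, which set the tags of a site against all tags of its library.

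A single read was worth 0.159 and 0.308 TPM in the Col0 libraries and 0.258 and 0.164 TPM in the cpsf70 libraries, so a site at 3 TPM, the floor of the Col0 tables, rests on about 19 and 10 reads in the Col0 libraries. In the authors' deposited table of RNA-seq, the targeted locus CPSF30 had 5.58 and 4.87 FPKM in Col0 against 0.542 and 0.593 FPKM in cpsf70. Among markers of the tissue, 11 sites of the shoot genes RBCS1A and RCA summed to 10099.5 and 7243 TPM in Col0 against 8670 and 7734 TPM in cpsf70, and 2 sites of the root transporters PHT1;1 and PHT1;4 to 55.8 and 47.1 TPM against 62.3 and 47.6 TPM. No marker site was called, but the sites differed. The main RBCS1A and RCA sites changed by −0.14 and −0.34 in log2(TPM + 1), cpsf70 minus Col0, and all other sites of these genes by 0.02 to 1.16. The main RCA site had 993 and 856 TPM in Col0 against 794 and 665 TPM in cpsf70. A minor RBCS1A site had 110 and 72.3 TPM against 124 and 227 TPM. Another RCA site, at 157 and 98.2 TPM in Col0 against 152 and 228 TPM in cpsf70, belongs to an overlapping pair. Neither of 2 seed storage genes had a Col0 site. Of the 3 shoot genes looked up, 2 had a Col0 site and LHCB1.3 had none. Lack of a listed site therefore says little about a tissue. Both cpsf70 tables list the same clusters and carry the same internal name, although their values differ, and a site listed in 1 of them is therefore listed in both.

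The overlaps were short. The midpoints of a pair were a median of 49.5 nt apart (quartiles 22 and 103), with a range of 0 to 298.5 nt, and the cluster spans themselves overlapped in 137 of 276 pairs. Of the pairs, 211 (76.4%) joined ends of 2 named genes and 65 had a gene on 1 strand only. A site took the name of a gene when it lay within the span of that gene, or up to 200 nt beyond its 3′ end, on the same strand. A named site is therefore not always the annotated end. A site farther past its gene counts as in no gene, so this rule can itself lower the share of 2-gene pairs at long overlaps. How far it does was not tested. The median overlap was 42 nt between 2 genes and 157.5 nt where the second site lay in no gene. Of the 79 pairs with an overlap under 25 nt, 92.4% had a gene on both strands, and of the 24 pairs with 200 nt or more, 4.17% did. That last pair was AT4G02200 with AT4G02210, at 200.5 nt. Convergent pairs without overlap had a gene on both strands in 93.2%. At the limits of the rule, AT1G18740 with AT1G18745 lay just inside at 0 nt and AT4G00750 with AT4G00752 just outside at −0.5 nt. At the far limit, a site of no gene opposite PSBX lay inside at 298.5 nt and one opposite AT1G05960 outside at 302.5 nt.

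**Figure D1:**
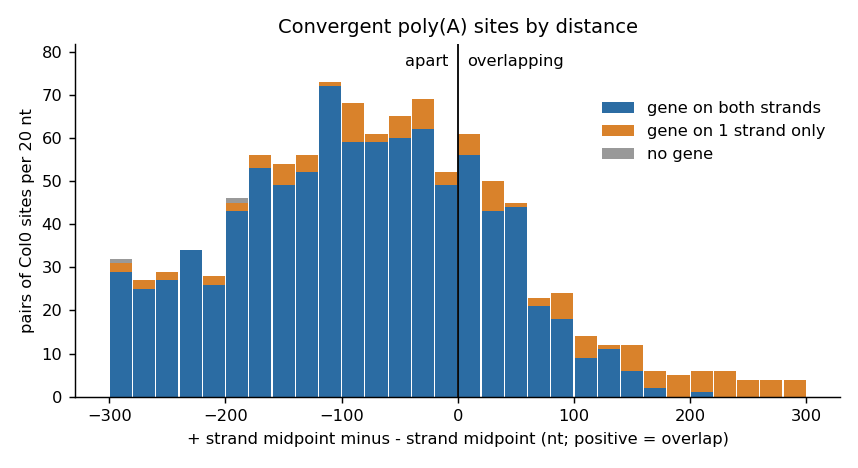
Number of convergent pairs of Col0 poly(A) sites per 20 nt (y axis) by the + strand midpoint minus the − strand midpoint in nt (x axis), coloured by whether the sites lie in genes. The 276 overlapping pairs, right of the line at 0, fall off within about 100 nt, and beyond 200 nt nearly all have a gene on 1 strand only. Gene names reach at most 200 nt past a gene's 3′ end.

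Of the 528 sites, 468 lay in a gene of their strand and 60 in none. By the annotation, 458 of the sites in genes were in protein-coding genes and 6 in long non-coding RNA genes. Sites in a gene were broad, with a median width of 43.5 nt, and sites in no gene were narrow, with a median of 14 nt. Their median Col0 levels were nearly alike, at 12.1 and 11.8 TPM. The same contrast of width held among all other Col0 sites, at 40 nt in genes and 13 nt in none, where 9.40% lay in no gene.

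The levels of facing transcripts showed no correlation in Col0. Across the 276 pairs, which share libraries and in part sites, Pearson's r of the log2 levels was −0.03 and Spearman's rho was −0.03. The stronger member stood above the weaker by a median ratio of 2.41 (quartiles 1.52 and 4.84), close to the 2.48 of pairs without overlap. In 105 pairs the members lay within 2-fold of each other, and in 35 they differed by over 10-fold. The + member was the stronger in 136 pairs.

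**Figure D2:**
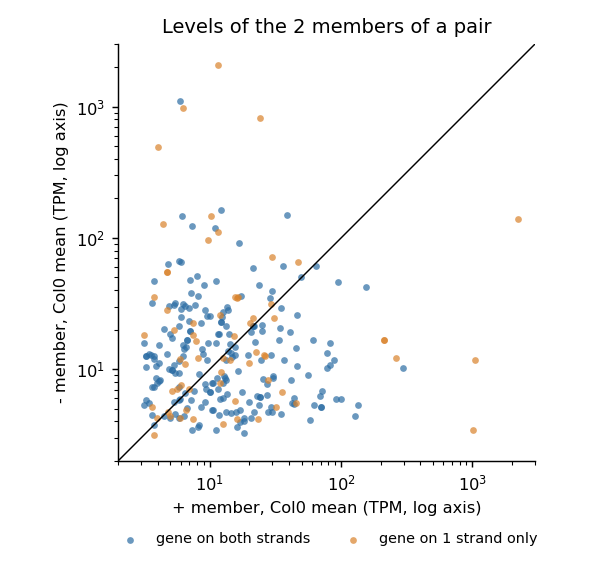
Mean Col0 level of the − member against that of the + member for each of the 276 pairs (TPM, both axes logarithmic; the line marks equal levels). Points scatter to both sides of the line with no trend, and 136 pairs lie on the side of the + member.

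The most abundant loci were ranked by the Col0 level of their weaker member. PSBO1, a subunit of the oxygen-evolving complex of photosystem II, came first. Its + site, which joined clusters from 26569667 to 26570349 on chromosome 5, held 2555 and 1913 TPM in Col0 against 2378 and 1916 TPM in cpsf70. The opposite site of no gene held 98.4 and 182 TPM in Col0 against 110 and 136 TPM in cpsf70. For both members the genotypes overlapped, and the balance between the strands had a change of 0.08 (SE 0.48; limma, Benjamini-Hochberg adjusted p = 0.946).

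POP2, the transaminase that degrades the amino acid GABA, faced the long non-coding RNA AT3G04255 with an overlap of 87.5 nt. POP2 stood at 45.6 and 53.6 TPM in Col0 against 42.7 and 29.96 TPM in cpsf70. AT3G04255 stood at 57.6 and 43.9 TPM in Col0 against 39.1 and 31.3 TPM in cpsf70. The mutant was lower on both strands without overlap of the groups, and the balance had a change of 0.06 (limma, adjusted p = 0.941).

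GAD2, a glutamate decarboxylase that makes GABA, faced TPX2, a spindle assembly factor, with an overlap of 2.5 nt. GAD2 held 166 and 143 TPM in Col0 against 230 and 161 TPM in cpsf70, and TPX2 held 44.3 and 39.7 TPM and 47.3 and 40.8 TPM. The groups overlapped for both genes. MBF1A, a transcriptional coactivator, at 100.1 and 90.5 TPM in Col0 against 122 and 76.7 TPM in cpsf70, faced AT2G42690, at 54.8 and 36.9 TPM and 64.1 and 53.1 TPM, with an overlap of 3.5 nt and with overlapping groups as well.

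The last of the most abundant loci with a balance that did not pass were AT2G34460 with UREG, a urease accessory protein, and p24beta2, a protein of the early secretory pathway, with a site of no gene. UREG held 72.4 and 50.2 TPM in Col0 against 82.7 and 67.4 TPM in cpsf70, while AT2G34460 held 43.7 and 28.9 TPM and 31.9 and 29.7 TPM. The groups overlapped for both. The remaining 2, MES14 with OHP2 and AT3G14100 with FLU, changed in the mutant and are described next.

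The first comparison asked whether single ends of these pairs changed in level in cpsf70. Only ends listed in all 4 tables could be tested, which were 431 member sites in 422 joined sites of 13668 tested. The members were neither all up nor all down: the change of log2(TPM + 1), cpsf70 minus Col0, had a median of −0.04 over member sites and of 0.04 over all tested sites. The median of members was 0.09 without Col0 replicate 1 and 0.12 without cpsf70 replicate 2, so its sign rests on single libraries. limma with Benjamini-Hochberg adjustment called 11 member sites (2.61%), 1 higher and 10 lower, beside 2.2% of all tested sites. By direction, the background was 0.615% higher and 1.59% lower. The count of members therefore lay near the background. Genotypes did not overlap at 34.1% of member sites, against 40.3% of all tested. The fit gave a single standard error of 0.49 to every site, so that a site extreme in 1 library can pass. In bulk seedlings, fewer cells of a type and less RNA per cell cannot be told apart.

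Of the 10 lower sites, 6 lay in genes, and 5 of these had lower values in both mutant libraries than in both Col0 libraries. MES14, a member of the methylesterase family that cleaves methylated hormones, had its end at 12357945 to 12358052 on the + strand of chromosome 1. It stood at 43.7 and 33.9 TPM in Col0 against at 4.63 and 4.27 TPM in cpsf70. It fell by 2.86 on the log2 scale (SE 0.49; limma, adjusted p = 1.54e-06), with no overlap between genotypes. OHP2, a one-helix thylakoid protein needed for photosystem II assembly, faces it on the − strand at 174 and 125 TPM in Col0 against 112 and 90.9 TPM in cpsf70. These OHP2 values were also lower in cpsf70 without overlap, by far less, and did not pass.

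CYP72A15, a cytochrome P450, ended at 4939393 to 4939436 on the + strand of chromosome 3. It stood at 41.1 and 29.6 TPM in Col0 against at 4.89 and 3.94 TPM in cpsf70, and fell by 2.73 (limma, adjusted p = 5.85e-06). The groups did not overlap. The opposite site of no gene, at 7.93 and 5.54 TPM in Col0, was not listed in cpsf70.

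FLU, a thylakoid protein that restrains chlorophyll precursor synthesis in the dark, ended at 4676065 to 4676143 on the − strand of chromosome 3. It stood at 75.2 and 47.1 TPM in Col0 against at 10.6 and 11.3 TPM in cpsf70, and fell by 2.34 (limma, adjusted p = 0.000253). The facing gene AT3G14100 stood at 71.7 and 57.1 TPM in Col0 against 72.6 and 49.3 TPM in cpsf70, with overlapping groups.

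HTA13, a histone H2A, ended at 7230082 to 7230158 on the + strand of chromosome 3. It stood at 26.1 and 20.01 TPM in Col0 against at 5.92 and 3.78 TPM in cpsf70, and fell by 2.05 (limma, adjusted p = 0.00272). LSM3B, an Sm-like protein of RNA splicing and decay complexes, ended at 28854404 to 28854484 on the − strand of chromosome 1. It stood at 43.4 and 44.6 TPM in Col0 against at 14.2 and 7.71 TPM in cpsf70, and fell by 1.97 (limma, adjusted p = 0.00511). Neither gene's groups overlapped. After rescaling by median ratios MES14 and CYP72A15 were the 2 member sites that passed, and FLU, HTA13 and LSM3B did not (limma, adjusted p = 0.0921, 0.0745 and 0.13). With the replicate number as a block, none of these genes passed, MES14 and CYP72A15 included (limma, adjusted p = 0.225 to 0.292). The labels do not say that this number marks a shared batch. With 1 library left out, the lone library of its genotype is assumed to vary like those of the other genotype. In such fits the calls of HTA13 and LSM3B were lost without cpsf70 replicate 2 (adjusted p = 0.142 and 0.315), that of HTA13 also without Col0 replicate 1 (adjusted p = 0.0643) and that of LSM3B without Col0 replicate 2 (adjusted p = 0.0747). HTA13, CYP72A15, LSM3B and PSBO1 belong to families with similar copies, and the sources used here do not give how tags that match several copies were counted.

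The remaining 5 lower calls had overlapping groups, and each was lost without 1 or more of the libraries. The site named KAK, a ubiquitin ligase of trichome development, stood at 2006 and 9.10 TPM in Col0 against at 29.2 and 6.07 TPM in cpsf70. Its change of −3.29 (limma, adjusted p = 8.6e-09) became 0.53 without Col0 replicate 1. The other 4 sites lay in no gene, opposite p24beta2, AT3G53470, LCB1 and GGR. The site opposite p24beta2 stood at 78.4 and 52.4 TPM in Col0 against at 1.42 and 60.4 TPM in cpsf70, with overlapping groups, and its change of −2.42 became −0.08 without cpsf70 replicate 1. The site opposite AT3G53470 stood at 17.4 and 31.3 TPM in Col0 against 1.16 and 23.2 TPM in cpsf70, and its change of −1.76 became −0.01 without that library and −1.35, which did not pass, without Col0 replicate 2. The site opposite LCB1, a subunit of serine palmitoyltransferase, stood at 4.62 and 19.8 TPM in Col0 against 0.566 and 6.08 TPM in cpsf70. Its change of −1.70 became −0.76 without Col0 replicate 2 and −0.61 without cpsf70 replicate 1. The site opposite GGR stood at 21.5 and 3.92 TPM in Col0 against 1.27 and 4.19 TPM in cpsf70, and its change of −1.62 became −0.52 without Col0 replicate 1 and −1.02 without cpsf70 replicate 1. None of these 4 values passed. At all 4 of these sites cpsf70 replicate 1 was the lowest library, at 0.566 to 1.42 TPM. No other library could be under 3 TPM at a tested member. Listed sites reach that level in both Col0 libraries and in cpsf70 replicate 2. These 4 sites all lay on the − strand.

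The single higher call lay in no gene, on the − strand opposite CAT3, a catalase that degrades hydrogen peroxide. It stood at 161 and 32.3 TPM in Col0 against at 178 and 442 TPM in cpsf70, a change of 1.94 (limma, adjusted p = 0.0064). The groups did not overlap, although the nearest libraries, 161 and 178 TPM, lay close, and the call was lost without Col0 replicate 2 (0.79) and without cpsf70 replicate 2 (1.28). CAT3's own site, at 14.7 and 4.62 TPM in Col0 against 18.3 and 32.5 TPM in cpsf70, had a change of 1.44 that did not pass (adjusted p = 0.123), so that both strands were higher in both mutant libraries here. The next closest were a site of no gene opposite AT2G17320, at 4.14 and 10.7 TPM in Col0 against 13.5 and 33.6 TPM in cpsf70 (1.53; adjusted p = 0.0771), and the long non-coding RNA AT1G04647, at 5.10 and 4.62 TPM and 17.3 and 12.1 TPM (1.40; adjusted p = 0.142). The groups of both did not overlap. The site opposite AT2G17320 passed with either Col0 replicate 2 (2.12) or cpsf70 replicate 1 (2.16) left out, and CAT3's own site with Col0 replicate 1 left out (2.18).

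Sites of no gene thus made up 5 of the 11 calls but 40 of the 431 tested members. Their Col0 libraries also differed more from each other, by a median of 0.58 on the log2 scale against 0.38 for sites in genes, and the cpsf70 libraries by 0.71 against 0.39. Their part in the calls was not tested.

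The second comparison set the strands of a pair against each other, as the balance log2((+ TPM + 1) / (− TPM + 1)). It asks whether 1 transcript of a pair gained on the other. Both members were listed in cpsf70 for 176 pairs, which gave 171 tested pairs of 712 convergent pairs tested with and without overlap. limma with Benjamini-Hochberg adjustment called 4 of them (2.34%), 1 higher and 3 lower, beside 2.25% of all tested (0.843% higher and 1.4% lower). The median change was −0.10 in overlapping pairs and −0.00444 in all tested pairs. Genotypes did not overlap in 49.1% of overlapping pairs, against 52.2% of all tested. Across the 176 pairs, which share libraries, the changes of the + and − members had r = 0.08 and the same sign in 90. No pair had both members called as single sites.

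The balance of MES14 and OHP2 was −1.97 and −1.85 in Col0 and −4.32 and −4.13 in cpsf70. It moved toward OHP2 by −2.31 (SE 0.28; limma, adjusted p = 0.0161). The balance of AT3G14100 and FLU was −0.07 and 0.27 in Col0 and 2.67 and 2.03 in cpsf70. It moved away from FLU by 2.25 (SE 0.34; limma, adjusted p = 0.0215). AT3G14100 and FLU were thus at nearly equal levels in Col0, and AT3G14100 stood above FLU in both cpsf70 libraries.

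The balance of HTA13 and AT3G20680 turned over. It was 1.88 and 1.55 in Col0, in favour of HTA13, and −0.53 and −0.19 in cpsf70, a change of −2.08 (SE 0.30; limma, adjusted p = 0.0199). AT3G20680 itself stood at 6.38 and 6.16 TPM in Col0 against at 9.01 and 4.43 TPM in cpsf70, with overlapping groups. The balance of AT1G08310 and AT1G04647 also changed sign. It was 1.11 and 0.77 in Col0 and −0.87 and −0.71 in cpsf70, a change of −1.73 (SE 0.29; limma, adjusted p = 0.0356). Here the long non-coding RNA AT1G04647 was the member with the larger difference, while AT1G08310 stood at 12.1 and 8.61 TPM in Col0 against 9.01 and 7.06 TPM in cpsf70.

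**Figure D3:**
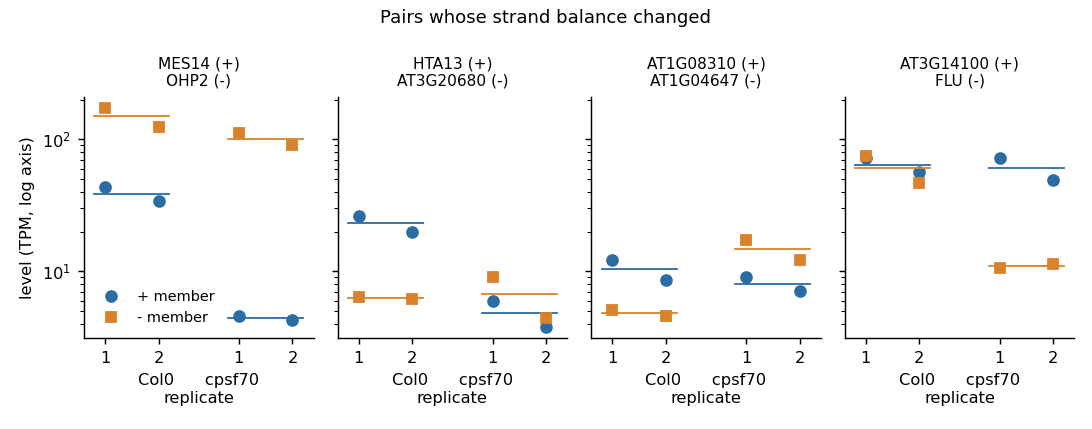
Level (TPM, logarithmic axis) of the + member (circles) and the − member (squares) in each library for the 4 pairs whose balance changed, with lines at the mean of each genotype. MES14, HTA13 and FLU stand lower in both cpsf70 libraries, AT1G04647 stands higher, and the facing members differ less.

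These 4 balances kept their direction with any library left out, but none passed without cpsf70 replicate 1 (adjusted p = 0.186 to 0.257). Without cpsf70 replicate 2 none of the 4 passed either (adjusted p = 0.0863 to 0.17), and that of AT1G08310 and AT1G04647 was also lost without Col0 replicate 1 (0.122). Next in p-value in the lower direction was AT5G13770 with AT5G13780 (−1.40; adjusted p = 0.057). Next in the higher direction were AT5G57035 with AT5G57040 (1.31; 0.0738), SEC5A, an exocyst subunit, with LSM3B (1.57; 0.0775) and the alcohol dehydrogenase ADH1 with AT1G77122 (0.91; 0.198). SEC5A stood at 10.2 and 8.00 TPM in Col0 against 6.69 and 6.57 TPM in cpsf70. ADH1 stood at 80.0 and 76.3 TPM in Col0 against at 146 and 114 TPM in cpsf70, without overlap.

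Across libraries, the median level of members relative to that of all sites was 0.24 and 0.18 in Col0 and 0.14 and 0.07 in cpsf70 on the log2 scale. The median balance was 0.11 and 0.21 in Col0 and 0.03 and −0.08 in cpsf70. For both, the groups did not overlap. The differences were −0.10 and −0.19, with an exact permutation p of 0.333 each (2-sided), which is the smallest that 2 against 2 libraries can give.

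The third comparison asked whether the overlap itself became longer or shorter. It used the distance between the mean + end and the mean − end of a locus, each weighted by the level of all sites there listed in all 4 tables, so that it is negative where most transcripts stop before meeting. Only 24 of the 252 loci could be tested, of 105 convergent loci in all, because 151 had a single site on each strand and 77 had no site in all 4 tables on 1 strand. limma with Benjamini-Hochberg adjustment called 0 of the 24, beside 0% of all 105, and 3 had an unadjusted p under 0.05, against 16.2% of all tested. The groups did not overlap at 37.5% of these loci and at 49.5% of all. The median change was −3.12 nt at these loci and −4.77 nt at all. At these loci it was 0.458 nt without Col0 replicate 1 and 0.356 nt without cpsf70 replicate 2.

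Among the 24, AT5G19750 with AT5G19760 had weighted distances of −153 and −140 nt in Col0 and −170 and −176 nt in cpsf70, a change of −26.4 nt (SE 6.39; limma, adjusted p = 0.199). SAP5, a stress-associated zinc finger protein, and its opposite site of no gene had 178 and 198 nt in Col0 and 160 and 149 nt in cpsf70 (−33.4 nt; adjusted p = 0.212). AT4G38490 with AT4G38495 went the other way, from −108 and −59.9 nt to −20.6 and −27.8 nt (59.8 nt; adjusted p = 0.217). The groups did not overlap at any of these 3 loci. Shorter distances in cpsf70 that did not pass were also found at NdhL, a subunit of the chloroplast NDH complex, with AT1G70770 (−10.5 nt) and at NF-YC11 with the cystatin CYSB (−8.13 nt). Of the changes toward a longer distance, those next after AT4G38490 in p-value were GGR (12.2 nt), PSBO1 (7.11 nt) and AUD1 with AT3G62840 (11.4 nt), with adjusted p of 0.275 to 0.577.

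Members missing from cpsf70 could not enter these tests. Of the 528 member sites, 97 (18.4%, exact 95% binomial interval 15.2 to 21.9) were not listed in the cpsf70 tables, against 11.1% (9.50 to 13.0) of sites of convergent pairs without overlap and 14.0% (13.4 to 14.6) of sites with no opposite site. Intervals cover counting error only. Both members were listed for 63.8% of overlapping pairs and for 79.2% of pairs without overlap. A site that is not listed is not shown to be at 0, since the cpsf70 clusters were drawn separately and all reach 3 TPM in cpsf70 replicate 2.

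The missing sites were unequal between strands. On the + strand 66 of 263 members (25.1%, 19.97 to 30.8) were missing, and on the − strand 31 of 265 (11.7%, 8.09 to 16.2). Sites with no opposite site showed 15.8% and 12.3%, and sites of pairs without overlap 14.2% and 8.22%. Among members of 3 to 5 TPM in Col0, 70.7% (54.5 to 83.9) were missing on the + strand and 29.3% (16.1 to 45.5) on the − strand, against 36.9% and 33.1% of sites with no opposite site. Among members of 10 to 20 TPM, 19.4% (10.8 to 30.9) were missing on the + strand and 1.43% (0.0362 to 7.70) on the − strand, against 8.16% and 4.63% of sites with no opposite site. The strands were closer in the other bins, at 23.7% and 17.1% for 5 to 10 TPM, 9.09% and 8.16% for 20 to 50 TPM, and 4.17% and 0% of 24 and 23 members for 50 TPM or more, where the exact interval for 0 of 23 reaches 14.8%. In all nuclear clusters the + strand held 49.4% and 49.0% in the Col0 tables and 48.1% in both cpsf70 tables. The cause of this inequality was not tested. In 69 of the 94 pairs with 1 missing member, the missing one was the weaker in Col0.

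**Figure D4:**
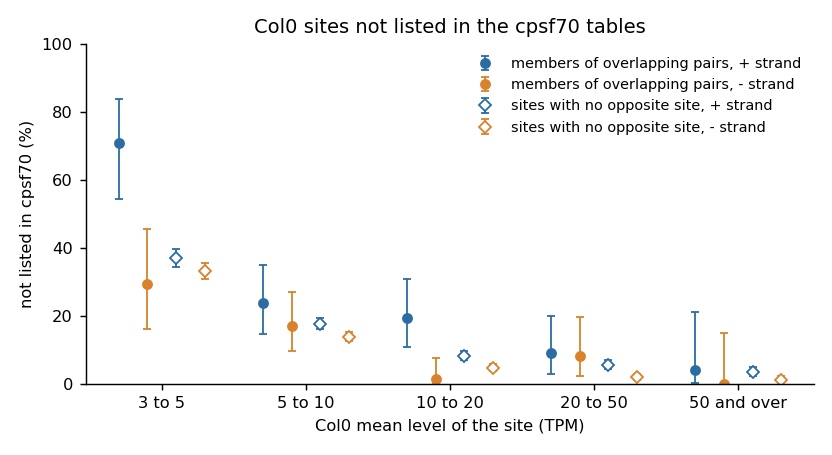
Share of Col0 sites not listed in the cpsf70 tables (%, y axis) by their mean Col0 level (TPM, x axis), for members of overlapping pairs (filled) and sites with no opposite site (open) on each strand, with exact 95% binomial intervals. Low sites are missing most often, and members of 3 to 5 TPM on the + strand stand highest, at 70.7%.

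The most abundant missing members, chosen here after their values were seen, include known genes. WRKY33, a transcription factor of defence, had its site (16110746 to 16110775 on the + strand of chromosome 2) at 60.9 and 54.3 TPM in Col0. Another cpsf70 cluster of its strand lay upstream, at −108.5 nt. RHM1, a rhamnose synthase of the cell wall, stood at 42.1 and 45.3 TPM and faced TPS1, which makes trehalose-6-phosphate. A site of no gene opposite GAPC1, the glycolytic glyceraldehyde-3-phosphate dehydrogenase, stood at 33.3 and 36.6 TPM. CSD3, a copper/zinc superoxide dismutase, stood at 28.4 and 19.1 TPM and faced the cap-binding protein NCBP. Of all 97, 25 had another cpsf70 cluster of the same strand within 300 nt, and in 19 of these the nearest lay upstream. The same count was not made for listed members or other sites, and the direction was not tested. PAP17, a purple acid phosphatase of phosphate starvation, at 15.9 and 18.8 TPM in Col0, was also missing, with a cpsf70 cluster upstream, at −62.5 nt. It is the only one of 444 genes with a member site in the authors' deposited RNA-seq table of 168 genes, which gives it 33.6 and 32.4 FPKM in Col0 and 54.0 and 53.1 FPKM in cpsf70 (fold 1.60, p = 0.0350).

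Formed by the same rule from the cpsf70 tables alone, 314 overlapping pairs were found there, and 229 with both members at 3 TPM or more in both libraries, against 276 in Col0. These came from 21940 and 17766 cpsf70 sites and 16674 Col0 sites, which is 2.86 and 2.58 pair members per 100 sites against 3.31. Here a site counts anew in each of its pairs, so that the Col0 value exceeds the 3.17% of Col0 sites that are members. Their median overlaps were 66.5 and 55.0 nt, against 49.5 nt. A site had to be in both tables of its genotype. This can drop sites in Col0, with 30511 and 27945 nuclear clusters, but none in cpsf70, where the 29896 clusters are shared. Clusters were also drawn separately in each genotype. The cause of the differences in pair number and overlap was not tested.

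m6A lay on most of these loci. The peaks carry no strand, so that a peak cannot be assigned to either member. An m6A peak lay between the midpoints or within 100 nt of them in both samples in 233 of 276 pairs (84.4%, 79.6 to 88.5), against 91.9% (89.7 to 93.7) of pairs without overlap. The span searched grows with the distance between the midpoints, which tended to be longer in pairs without overlap. Shares of the 2 kinds of pairs are therefore not of equal spans. Pairs of 2 genes had one in 92.4% (88.0 to 95.6), close to the 93.1% (91.0 to 94.9) of 2-gene pairs without overlap, and pairs with a gene on 1 strand only in 58.5% (45.6 to 70.6). Single sites were each searched within 100 nt of the midpoint, an equal span for all. Among them, 84.1% (80.7 to 87.1) of members had a peak in both samples. So did 81.8% (79.6 to 83.9) of sites of pairs without overlap and 56.2% of sites with no opposite site. Whether the second transcript near a member bears on this share was not tested.

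The peaks were centred on the overlap. At the centre of the pair, m6A peaks covered 80.4% and 81.9% of the overlapping pairs in the 2 samples, and 200 nt to the left they covered 64.1% and 58.7%. Pairs without overlap had a dip at the centre, with 47.9% and 59.2%, between 80.4% and 76.5% at 200 nt to the left and 70.4% and 73.6% at 160 nt to the right. The authors' fold enrichment of the highest peak at a pair had a median of 4.19 and 5.17 in overlapping pairs and of 4.14 and 5.29 in the others.

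CPSF70 CLIP peaks lay on fewer pairs. They were found on 119 and 139 of the 276 pairs in replicates 1 and 2 (m6A on 241 and 238), and on 93 in both (33.7%, 28.1 to 39.6), against 46.3% of pairs without overlap. As for m6A, the span searched tended to be longer in pairs without overlap, and equal only for single sites. Pairs of 2 genes had one in 37.4% (30.9 to 44.3), against 46.6% (42.9 to 50.4) of 2-gene pairs without overlap. Pairs with a gene on 1 strand only had one in 21.5% (12.3 to 33.5). Among single sites, 30.5% (26.6 to 34.6) of members had a CLIP peak in both samples, against 20.7% (20.1 to 21.4) of sites with no opposite site and 32.9% (30.4 to 35.5) of sites of pairs without overlap. Of the 93 pairs, 85 also had an m6A peak in both samples. No CLIP sample of the wild type was used as background here, and the sources used here do not give what the peaks were called against.

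CLIP peaks were narrow around the overlap. They covered 19.6% and 21.4% of overlapping pairs at the centre, and 2.17% and 2.17% at 200 nt to the left. In pairs without overlap the coverage was one-sided: it reached 17.1% and 19.9% at 100 nt to the left of the centre, the side of the + strand gene, and 8.27% and 8.67% at 100 nt to the right. Overlapping pairs had 7.61% and 8.33% on the left and 7.25% and 7.25% on the right.

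**Figure D5:**
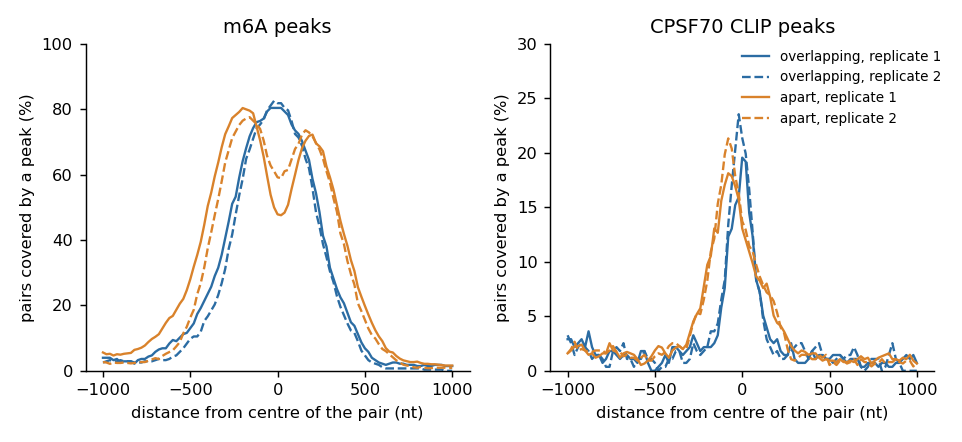
Share of pairs covered by an m6A peak (left) or a CPSF70 CLIP peak (right) in %, by distance in nt from the centre of the pair, for overlapping pairs and pairs without overlap, with 1 line per sample. m6A covers the centre of over 80% of overlapping pairs and dips there in pairs without overlap, and CLIP peaks of overlapping pairs stand at the centre.

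The pairs with peaks in both assays and all samples whose weaker member was most abundant were POP2 with AT3G04255, p24beta2, MBF1A with AT2G42690, GAD2 with TPX2, and MES14 with OHP2. At MES14 and OHP2 the authors' folds were 3.88 and 3.75 for m6A and 4.4 and 8.46 for CLIP. At GAD2 and TPX2 they were 3.08 and 3.46 for m6A and 4.67 and 5.14 for CLIP. Among these 5 the balance of MES14 and OHP2 changed, and the others had adjusted p of 0.368 to 0.941 (limma). Of the 11 member sites called in level, 7 had an m6A peak in both samples and 2 a CLIP peak in both. Of the 431 tested members, 365 had such an m6A peak and 141 such a CLIP peak, and the difference was not tested. HTA13 had neither in any sample, and FLU had a CLIP peak in replicate 2 only.

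Of 161 members with a CLIP peak in both samples, 12.4% (7.76 to 18.5) were not listed in cpsf70, and of 237 members with none, 23.6% (18.4 to 29.6). With m6A in both samples 17.8% (14.3 to 21.7) were not listed, and with none 23.3% (13.4 to 36.0). The level of the sites, which differs between members with and without peaks, was not held constant here, and the differences were not tested.

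Genes of related pathways were also read in the same tables. Of 21 genes of 3′ end formation and termination 9 were tested, with 10 sites, and limma with Benjamini-Hochberg adjustment called 0 of them, beside the 2.2% of all tested sites. The tested genes include the poly(A)-binding protein PABN1, at 18.8 and 10.5 TPM in Col0 against 20.6 and 18.9 TPM in cpsf70, and the exonuclease XRN3, at 11.5 and 7.70 TPM and 11.8 and 9.40 TPM. Of 11 genes of double-stranded RNA and silencing 4 were tested and 0 called, among them AGO1, which carries small RNAs, at 68.2 and 66.3 TPM in Col0 against 58.2 and 44.9 TPM in cpsf70, and the dicer DCL4, at 6.38 and 3.39 TPM and 3.86 and 3.28 TPM. Of 9 genes of described cis-antisense loci, CBF1 was the only one tested, and it did not pass (0.34; limma, adjusted p = 1.00). None of the genes of these 3 lists had a member site, beside 3.17% of all Col0 sites, so that with so few listed sites this count says nothing about the lists.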

How the data were processed

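Per the file headers, the authors deposited poly(A) clusters of each library with levels in TPM, and m6A and CLIP peaks of each replicate with fold enrichments (ratios) and −log10 p-values. Their deposited RNA-seq table lists 168 genes with FPKM, fold and p-value. Tools named in the submitters' processing notes are MACS2 2.2.5, HISAT2 2.1.0 and cutadapt 1.18, on TAIR10. The sources used here do not give their settings. Replicate numbers of CLIP follow the titles, since the internal names swap them.

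Clusters were joined per strand over the 4 tables at gaps of at most 24 nt and their TPM summed. Low values were 65.4% to 87.1% whole multiples of 1 read (within 0.01 read), so no count test was run. Tests used limma 3.58.1 on log2(TPM + 1), 2 against 2, without block, over all sites (13668), convergent pairs (712) or loci (105), with Benjamini-Hochberg adjustment at 0.05. A change on this scale understates that of low sites. The overlap length was first planned per library cluster. As bounds are shared within a genotype, it was instead computed on joined sites. The scripts were tested on simulated data. Gene names came from RefSeq (TAIR10.1), with strands inferred from the tags of these same sites. By these strands 90.5% of Col0 sites fell in a gene of their strand, against 21.2% after a shift of 50000 nt. The first share is in part fixed by the inference, so it is no independent check of the names. Named items were the 8 most abundant loci, up to 8 calls per direction and comparison or the closest 4, and the 5 most abundant pairs with all peaks. CIs are exact binomial. The members and lists were chosen with earlier results of these data known. Exons and sequences were not used here.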

Additional observations from a re-analysis of the deposited data

How the results depend on the processing

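The number of overlapping pairs was 237 to 338 with other joining gaps or a limit of 150 nt, and 78 when both members had to reach 10 TPM. The 11 called member sites became 20 (5 higher, 15 lower) at a pseudocount of 3, 2 after rescaling by median ratios, 106 with absent cpsf70 values set to 0 (105 lower, as this setting itself imposes) and 9 to 13 without 1 library. KAK reversed to 0.53 without Col0 replicate 1, and ranged from −7.10 to 0.53 without 1 library. The 4 called balances became 2 at a mean of at least 10 TPM, 98 with absent values set to 0, 9 with robust eBayes, 8 for pairs of 0 to 150 nt and 0 to 11 without 1 library (11 and 10 without Col0 replicate 1 and 2, 0 and 1 without cpsf70 replicate 1 and 2). The 0 called loci became 19 with absent values set to 0, where GGR reversed to −25.3 nt, and 0 to 1 without 1 library, the 1 being AT4G38490 with AT4G38495 (84.0 nt) without Col0 replicate 2. Over all tested sites, 610 of 13668 were called at a pseudocount of 3 and 34 of 13668 after rescaling by median ratios. With absent values set to 0, 2670 of 15986 were called. The tested member sites among them numbered 422, or 519 with absent values set to 0. Over all tested pairs, the 16 calls of 712 became 7 of 280 at 10 TPM and 279 of 956 with absent values set to 0. They became 33 of 712 with robust eBayes and 32 of 692 for 0 to 150 nt. The overlap length was called at 58 of all 300 loci with absent values set to 0. Pseudocounts and median ratios do not enter the overlap length. The share of pairs with m6A was 29.0% with the upper part of the folds. The share with CLIP was 21.4% without extension, 22.1% with the upper part of the folds, and 43.1% to 50.4% in a single sample. Members not listed in cpsf70 were 8.33% at 10 TPM or more, an alternative chosen after seeing the data. Rescaling by median ratios left the change of MES14 at −2.91. The site fit then no longer gave every site 1 standard error, with prior degrees of freedom of 2.17 against infinite in the main fit. Except for the absent values set to 0, where the added zeros make the calls, the cause of these differences was not tested.

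The labels give both genotypes replicates 1 and 2 but do not say that a number marks a shared batch, and the deviations of same-numbered libraries correlated with 0.20 over all sites and 0.40 over members. With a replicate block, 0 member sites, 16 pairs (10 higher, 6 lower) and 0 loci were called. Over all features the block fit called 0 of 13668 sites, 48 of 712 pairs and 0 of 105 loci. A site at 3 TPM rests on 10 to 19 reads in Col0. Fits without 1 library take the spread from the other genotype and the prior. Only 24 loci could show a change of overlap length.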
